A study of Arabidopsis thaliana with 48 samples.

Results

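The difference between the estradiol response of the Arabidopsis thaliana line labelled CNA-PpHOX32 and that of the line labelled CNA was measured in 12 of the 48 libraries of the series. These were all 6 libraries of each line, chosen by their genotype labels, with 3 mock and 3 induced libraries per line. For each gene the quantity of interest was the change from mock to induced in CNA-PpHOX32 minus the same change in CNA, given below on the log2 scale as the difference in response. Genes are named where the mean was at least 10 counts in 3 of the 4 groups. A negative value means that the gene rose less, or fell more, in CNA-PpHOX32.

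CNA (CORONA, also named ATHB-15) belongs to the HD-ZIPIII (class III homeodomain leucine zipper) transcription factors, and the series' design text speaks of chimeric CNA constructs. Both lines were T2 seedlings carrying an estradiol-inducible construct, grown at 22 °C in long days. At 9 days they were sprayed with 50 µM β-estradiol in 1% DMSO with Silwet L-77 (induced), or with 1% DMSO and Silwet L-77 (mock), and whole seedlings were taken at 10 days. Mock seedlings therefore carried the construct as well. No line without a construct was analysed here, and the labels do not say which promoter drives the constructs, how many transformants a line stands for, or what the suffix PpHOX32 replaces. RNA was read from the 3′ ends of transcripts with QuantSeq, a method that primes at the poly(A) tail, so that read counts do not scale with transcript length. Levels are given as CPM, the share of a library's counts scaled to 1e+06 after TMM, which corrects for differences in composition between libraries.

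Class III homeodomain leucine zipper proteins act in the nucleus as dimers, bind DNA and promote upper (adaxial) leaf fate, vascular patterning and shoot meristem formation. They activate the LITTLE ZIPPER genes, whose short products have a leucine zipper but no DNA-binding domain and hold the transcription factors in inactive dimers. The family also carries a START domain, which resembles lipid-binding proteins.

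ATHB-15, ZPR1 and ZPR4 rose after induction in both lines, and the difference in their responses was within its SE. ATHB-15, the gene of CNA itself, was read at 19.2, 13.6 and 14.8 CPM in the 3 CNA mock libraries and at 55.6, 47.0 and 73.9 CPM in the induced ones. The same gene was read at 17.41, 9.56 and 14.2 CPM in CNA-PpHOX32 mock libraries and at 42.0, 42.0 and 32.9 CPM in induced ones. In both lines every induced library lay above every mock library, with log2 changes of 1.89 ± 0.42 (SE, adjusted p = 0.00134, edgeR) in CNA and 1.5 ± 0.42 (adjusted p = 0.0195) in CNA-PpHOX32. Whether these counts include reads of the construct as well as of the resident gene is not given in the sources used here. The difference in response was -0.39 ± 0.58 (adjusted p = 0.874), with a 95% interval from -1.53 to 0.76.

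ZPR1, a LITTLE ZIPPER gene, stood at 46.5, 30.3 and 23.4 CPM in CNA mock libraries and at 505, 233 and 655 CPM after induction. It stood at 40.5, 32.8 and 51.2 CPM in CNA-PpHOX32 mock libraries and at 691, 563 and 363 CPM after induction. The log2 rise was 3.79 ± 0.33 in CNA and 3.70 ± 0.32 in CNA-PpHOX32, and the 95% interval of the difference ran from -0.90 to 0.73. ZPR4 rose by 3.52 ± 0.49 and 4.1 ± 0.50 on the log2 scale, with a difference of 0.58 ± 0.65 (adjusted p = 0.804). ZPR3 was at 0.760 to 17.8 CPM in these libraries and passed the test in neither line. ZPR2 had at most 0.210 CPM in a library and was not tested. Among the other 4 HD-ZIPIII genes, PHB, PHV, REV and HB-8, none passed the test in either line, and REV had the widest difference in response at 2.43 ± 1.61 (adjusted p = 0.593).

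**Figure D1:**
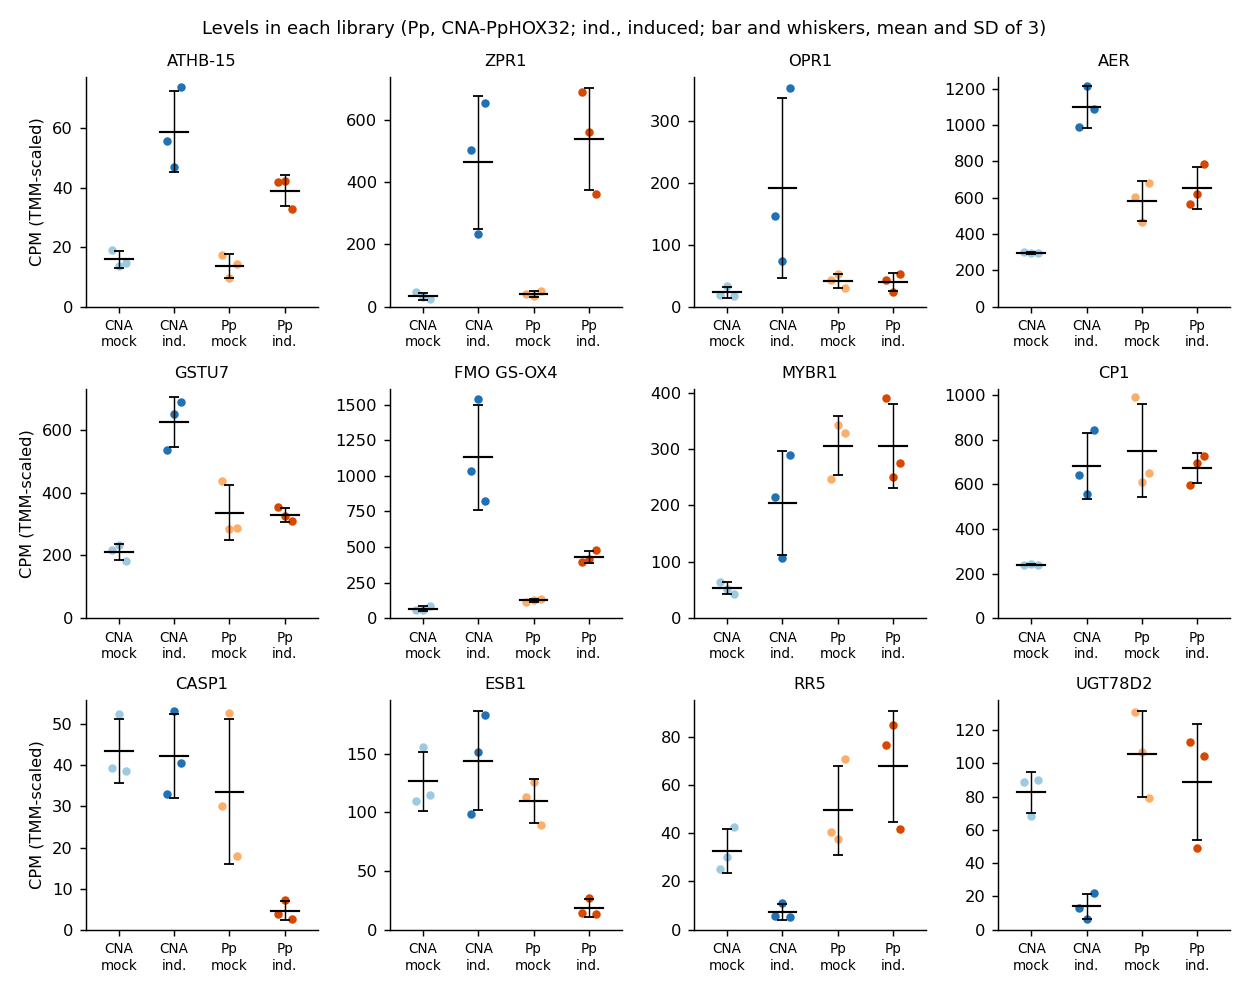
Level of 12 genes in each of the 12 libraries, in CPM on axes that start at 0; points are libraries, bars and whiskers the mean and SD of 3. ATHB-15 and ZPR1 rise in both lines. OPR1, AER, GSTU7 and FMO GS-OX4 are highest in CNA induced libraries, MYBR1 and CP1 are lower in CNA mock than in the other 3 groups, CASP1 and ESB1 are lowest in CNA-PpHOX32 induced libraries, and RR5 and UGT78D2 are lowest in CNA induced libraries.

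Over all 18909 genes tested, 766 rose (4.05%) and 748 fell (3.96%) after induction in CNA, at an adjusted p under 0.05 in edgeR's quasi-likelihood test. In CNA-PpHOX32, 295 rose (1.56%) and 742 fell (3.92%). The genes that fell in both lines numbered 353, which is 47.2% of those that fell in CNA and 47.6% of those that fell in CNA-PpHOX32. The genes that rose in both numbered 150, which is 19.6% of those that rose in CNA and 50.8% of those that rose in CNA-PpHOX32. The 766 genes that rose in CNA had a median log2 change of 1.5 in CNA and of 0.49 in CNA-PpHOX32, where 80.3% also lay above 0. The 748 genes that fell in CNA had medians of -1.59 and -1.06. Conversely, the 295 genes that rose in CNA-PpHOX32 had medians of 1.43 there and 0.98 in CNA. The 742 that fell in CNA-PpHOX32 had medians of -1.51 there and -0.973 in CNA. Genes selected for passing in a line tend to show smaller changes in the other, so these medians do not rank the lines.

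The difference in response itself passed the test for 148 genes (0.783%). The response was lower in CNA-PpHOX32 for 132 of them (0.698%) and higher for 16 (0.0846%), while the median over all genes tested was 0.02. The spread between replicates was wider in CNA-PpHOX32, with a biological coefficient of variation of 79.4%, than in CNA at 64.6% or over all 48 libraries at 60.9%. A fit on the 12 libraries alone called 65 genes, 60 lower and 5 higher, of which 59 were among the 148. Of the 148, 139 met the minimum of 10 counts. A limma voom fit with weights per line called 73, of which 65 were among the 148. On data simulated with each line's own spread, the fit over all 48 libraries called more unchanged genes than its threshold allows, so more of the 148 calls may be false than the threshold states. The other 2 fits were not run on the simulated data, so the share of false calls in them, or among calls shared between fits, was not measured. Altogether 44 genes were called in all 3 fits, 42 lower and 2 higher. Leaving out 1 library at a time gave between 69 calls (without CNA mock replicate 2) and 183 (without CNA induced replicate 1), and 36 of the 148 genes were called in each of these 12 fits.

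**Figure D2:**
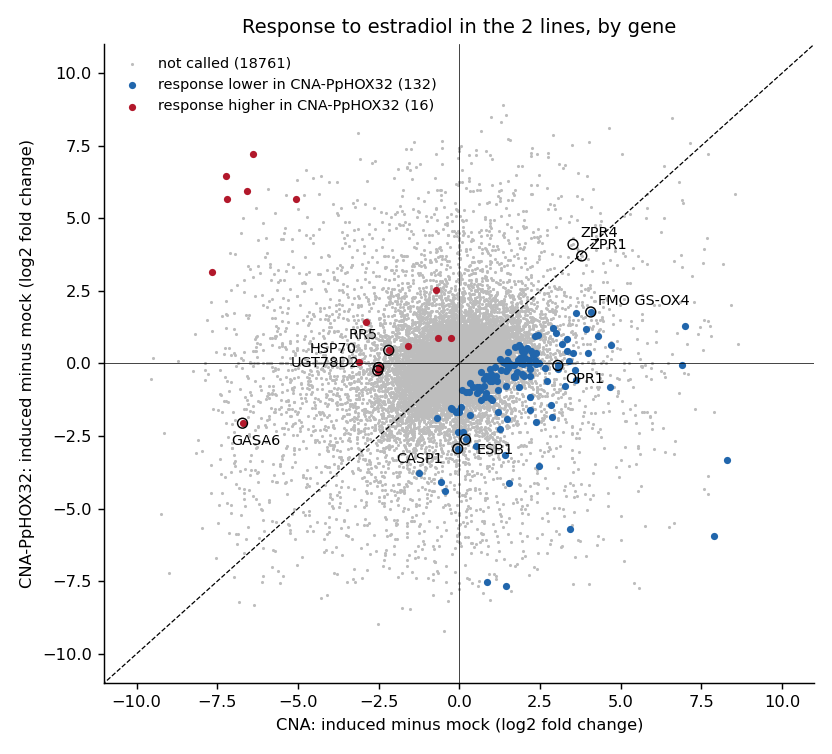
Response of every gene tested in CNA (horizontal) and in CNA-PpHOX32 (vertical), as log2 fold changes from mock to induced; the dashed line marks equal responses. The 132 genes with a lower response in CNA-PpHOX32 lie mostly to the right, near or below 0 on the vertical axis, whereas ZPR1 and ZPR4 lie on or near the line of equal responses.

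The 132 genes with a lower response were largely genes that rose in CNA. Of them, 85 rose in CNA and passed no test in CNA-PpHOX32, 36 fell in CNA-PpHOX32 and passed none in CNA, 3 rose in CNA and fell in CNA-PpHOX32, 6 rose in both, 1 fell in both and 1 passed neither test. Their median log2 change was 1.68 in CNA and -0.447 in CNA-PpHOX32. Because each response is part of the difference, these counts describe the genes and test nothing further.

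The genes with the smallest p-values, picked out after their values were seen, included enzymes known to detoxify reactive compounds. AT5G11090, a gene of no role named here, had the smallest, at -2.16 ± 0.30 (adjusted p = 3.48e-05), with 88.1, 80.5 and 89.4 CPM in CNA mock, 231, 251 and 343 CPM in CNA induced, 199, 254 and 309 CPM in CNA-PpHOX32 mock and 148, 179.8 and 218 CPM in CNA-PpHOX32 induced libraries. OPR1, a 12-oxophytodienoate reductase of the cytosol, stood at 19.3, 33.0 and 17.1 CPM in CNA mock libraries and at 146, 74.2 and 354 CPM after induction. It stood at 42.8, 52.8 and 29.8 CPM in CNA-PpHOX32 mock libraries and at 43.4, 23.8 and 52.1 CPM after induction. The 3 induced CNA libraries lay above every other library, and the mock and induced libraries of CNA-PpHOX32 overlapped. The difference in response was -3.11 ± 0.50 (adjusted p = 0.000232, edgeR). The annotated span of OPR1 overlaps that of the adjacent gene AT1G76690, so reads could have been shared.

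AER, an alkenal reductase that removes reactive carbonyls, rose from 304, 297 and 293 CPM to 988, 1219 and 1091 CPM in CNA. In CNA-PpHOX32 it was read at 602, 466 and 682 CPM in mock libraries and at 563, 619 and 785 CPM in induced ones, between the CNA groups in every library. Its difference in response was -1.71 ± 0.27 (adjusted p = 0.000232). GSTU7, a tau-class glutathione transferase whose span overlaps AT2G29410, rose from 218, 233 and 183 CPM to 535, 651 and 690.1 CPM in CNA. It was read at 437, 284 and 288 CPM and then at 353, 325 and 309 CPM in CNA-PpHOX32, with a difference of -1.60 ± 0.27 (adjusted p = 0.000309). GSTU19, of the same class and among the more abundant transcripts, went from 3196 ± 208 to 7805 ± 2102 CPM in CNA and from 5054 ± 1087 to 4324 ± 1248 CPM in CNA-PpHOX32 (SD, n = 3), and missed the threshold in the 12-library fit (adjusted p = 0.0551).

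AER and GSTU7 share the palindrome TGACGTCA at their promoters, and how many other promoters hold it was not counted. The 250 bases before each annotated start are shown because both hold TGACG, a core bound by TGA-type bZIP factors, as part of this palindrome. They were read from the RefSeq assembly TAIR10.1, AER from chr5:5578087-5578336 and GSTU7 from chr2:12618900-12619149, both on the minus strand and written 5′ to 3′, with matches to TGACG on either strand in capitals.
AER: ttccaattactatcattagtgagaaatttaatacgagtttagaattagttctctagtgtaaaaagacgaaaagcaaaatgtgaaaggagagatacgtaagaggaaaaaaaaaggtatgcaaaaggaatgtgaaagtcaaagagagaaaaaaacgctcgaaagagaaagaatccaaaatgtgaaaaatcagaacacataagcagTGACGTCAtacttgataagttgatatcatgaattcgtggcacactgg
GSTU7: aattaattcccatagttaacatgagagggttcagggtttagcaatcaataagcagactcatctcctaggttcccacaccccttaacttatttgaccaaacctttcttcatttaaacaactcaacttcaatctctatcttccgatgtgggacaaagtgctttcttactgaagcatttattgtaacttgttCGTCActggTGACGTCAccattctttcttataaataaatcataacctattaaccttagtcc

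TGACG was present in the 250-base promoter of 3607 of the 18550 tested genes that had one (19.4%). It was present in 30 of the 132 genes with a lower response (22.7%), namely in 26 of the 94 that rose in CNA (27.7%) and 4 of the other 38 (10.5%). ACGTG, the core of abscisic acid response elements, was in 24.1% of all these promoters and in 29.5% of the 132, with 30.9% of the 94 and 26.3% of the 38. The 2 motifs share letters where TGACG is followed by TG. AATNATT, a core of homeodomain leucine zipper sites, was in 31.8% of all promoters and 31.1% of the 132, and here the split ran the other way, with 27.7% of the 94 and 39.5% of the 38. OPR1 held none of the 3 in this window. Of the other genes of smallest p-value besides AER and GSTU7, AT4G33467, TPX2 and NHL3 held TGACG. It was absent from GSTU19, CCH, FMO GS-OX4, ADC2, XTH24, UCP5, AT1G21670, MYBR1, CP1 and AT5G11090. The motifs were chosen after the gene names were known, both strands were searched, and the shares are descriptions.

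Other genes of small p-value differed in what CNA-PpHOX32 did. FMO GS-OX4, a flavin monooxygenase that oxidises glucosinolate side chains, went from 57.3, 59.1 and 86.0 CPM to 1032, 1538 and 821 CPM in CNA and from 115, 127 and 135 CPM to 395, 414 and 477 CPM in CNA-PpHOX32. No libraries of mock and induced groups overlapped in either line, and the difference in response was -2.30 ± 0.37 (adjusted p = 0.000232). ADC2, an arginine decarboxylase of putrescine synthesis, rose 2.27 ± 0.24 on the log2 scale in CNA and did not pass in CNA-PpHOX32 (0.28 ± 0.23, adjusted p = 0.570), with a difference of -1.99 ± 0.33 (adjusted p = 0.000232). XTH24, a xyloglucan-modifying enzyme of the cell wall, went from 214 ± 30.7 to 961 ± 148 CPM in CNA and from 539 ± 49.6 to 535 ± 161 CPM in CNA-PpHOX32. The other 6 lines had XTH24 means of 293 to 1469 CPM in mock and 455 to 1281 CPM in induced seedlings. The induced mean was the higher in 3 of these 6, and the CNA mock mean lay below all their mock means.

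CCH, a copper chaperone, moved in opposite directions. It went from 449.9, 426 and 434 CPM to 754, 1009 and 501 CPM in CNA, and from 287, 357 and 465 CPM to 185, 159 and 149 CPM in CNA-PpHOX32. In the other 6 lines its means were 274 to 459 CPM in mock and 179 to 560 CPM in induced seedlings, with the induced mean higher in 2. It rose by 0.79 ± 0.22 (adjusted p = 0.0135) in CNA, fell by 1.17 ± 0.22 (adjusted p = 0.000198) in CNA-PpHOX32, and differed by -1.96 ± 0.31 (adjusted p = 0.000232). TPX2, a thioredoxin-dependent peroxidase whose span overlaps AT1G65960, went the same ways, from 1079 ± 194 to 2174 ± 934.6 CPM in CNA and from 2509 ± 494 to 1046 ± 240.0 CPM in CNA-PpHOX32 (adjusted p of the difference = 0.000482).

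In gene families collected by symbol after these values were seen, 3 of 25 tested GSTU genes (GSTU7, GSTU19 and GSTU24), 1 of 10 GSTF genes, 4 of 49 UGT genes and 3 of 15 KCS genes had a lower response, and 1 UGT gene (UGT78D2) a higher one. The WRKY family, collected the same way, had 1 lower response among 49 tested. Over all genes tested the share with a lower response was 0.698%. In the 12-library fit the lower responses numbered 2 in GSTU, 0 in GSTF, 4 in UGT, 1 in KCS and 2 in WRKY genes. In CNA, 6 GSTU, 6 GSTF, 9 UGT, 7 KCS and 5 WRKY genes rose (4.05% of all genes), while 3 GSTU and 3 UGT genes fell (3.96% of all genes). In CNA-PpHOX32, 1 GSTU, 1 GSTF and 1 UGT gene rose (1.56% of all genes), while 2 GSTU, 5 UGT and 1 WRKY gene fell (3.92% of all genes). The median difference in response was -0.12 for GSTU, -0.58 for GSTF, -0.57 for UGT, -0.78 for WRKY and -0.63 for KCS genes, which elongate very-long-chain fatty acids.

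The lower responses lay among mock seedlings for some genes and among induced seedlings for others. Among mock libraries, CNA-PpHOX32 was higher than CNA for 205 genes (1.08%) and lower for 128 (0.677%). Among induced libraries it was higher for 147 (0.777%) and lower for 344 (1.82%). Of the 132 genes, 58 were higher among mock libraries and 60 lower among induced ones. These sets shared 4 genes, and 18 genes passed neither test. For 67 of the 132 the lines stood further apart among mock libraries, and for 65 among induced ones. These level comparisons share libraries with the difference in response and are given to show where it lies.

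**Figure D3:**
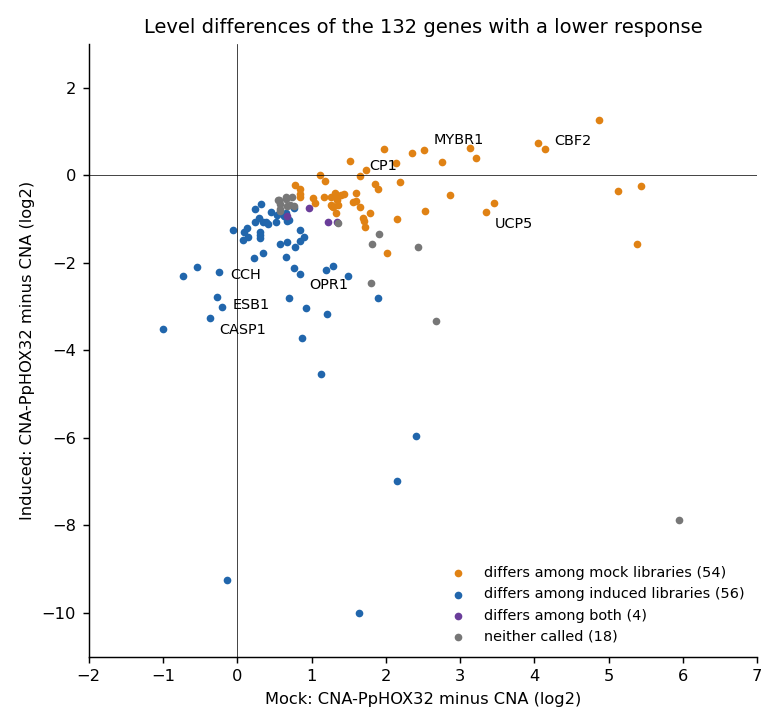
Log2 level of CNA-PpHOX32 relative to CNA among mock (horizontal) and induced (vertical) libraries for the 132 genes with a lower response. Orange points (54) differ among mock libraries, blue (56) among induced, purple (4) among both and grey (18) among neither; MYBR1, CP1, UCP5 and CBF2 lie to the right of 0 on the horizontal axis and closer to 0 on the vertical, and CCH, ESB1 and CASP1 lie near 0 on the horizontal axis and well below 0 on the vertical.

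Genes of the mock kind were already higher in CNA-PpHOX32 than in CNA among seedlings that had received no estradiol. Of those described below, MYBR1, CP1 and UCP5 were picked out after their values were seen. MYBR1, a MYB transcription factor of abscisic acid and stress responses, stood at 64.4, 52.5 and 42.3 CPM in CNA mock libraries and at 215, 107 and 290.1 CPM after induction. In CNA-PpHOX32 it stood at 246, 343 and 328 CPM before and at 389.6, 250.4 and 275 CPM after induction. The mock libraries of the lines did not overlap and differed by 2.52 on the log2 scale (adjusted p = 3.56e-10), whereas the induced libraries overlapped (0.58, adjusted p = 0.209). The difference in response was -1.94 ± 0.34 (adjusted p = 0.000546). MYBR1 overlaps AT5G67310 in the annotation.

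CP1, a calcium-binding protein, was read at 239, 244 and 238 CPM in CNA mock libraries and at 992, 609.5 and 652 CPM in CNA-PpHOX32 mock libraries. After induction it stood at 642, 556 and 845 CPM and at 599, 697 and 727 CPM, where the lines overlapped. UCP5, a mitochondrial dicarboxylate carrier, stood at 8.29, 6.58 and 2.85 CPM in CNA mock libraries, at 34.8, 39.3 and 111 CPM in CNA-PpHOX32 mock libraries and at 27.2 to 112 CPM in the 6 induced ones. CBF2, a cold-inducible transcription factor gene, had the most uneven mock libraries, at 23.55, 163 and 462 CPM in CNA-PpHOX32 against 3.41, 14.7 and 19.0 CPM in CNA. Its difference in response of -3.54 ± 0.88 (adjusted p = 0.0328) was not called in the 12-library fit (adjusted p = 0.098).

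Comparison with the other 6 lines of the series placed these levels. For the 132 genes, the CNA-PpHOX32 mock mean lay above the mock means of all 6 other lines in 53 genes (40.2%), against 12.8% of all genes tested, and the CNA mock mean lay below all 6 in 30 (22.7%, against 9.11%). Among induced means, CNA lay above all 6 in 53 (40.2%, against 13.1%) and CNA-PpHOX32 below all 6 in 41 (31.1%, against 3326 of all 18909 genes). Since the genes were selected for a gap between these 2 lines, shares above those of all genes follow in part from the selection. MYBR1 had mock means of 66.8 to 161 CPM in the other 6 lines, so the 306 CPM of CNA-PpHOX32 was the highest of the 8. OPR1 was induced from 15.1 to 39.8 CPM up to 74.5 to 147 CPM in the other 6 lines, and AER from 194 to 506 up to 834 to 1142 CPM. CNA-PpHOX32, at 39.8 CPM for OPR1 and 656 CPM for AER, had the lowest induced mean of the 8 lines for both. CNA stood at the other end for OPR1, with the highest induced mean of the 8 at 191 CPM, and for MYBR1, with the lowest mock mean at 53.1 CPM. For AER its induced mean of 1099.6 CPM lay within those of the other 6 lines. CP1 mock means ran from 82.8 to 806 CPM in the other lines, with CNA-SmHOX32 at 806 ± 152 CPM, so the high mock level of CP1 was not limited to CNA-PpHOX32.

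**Figure D4:**
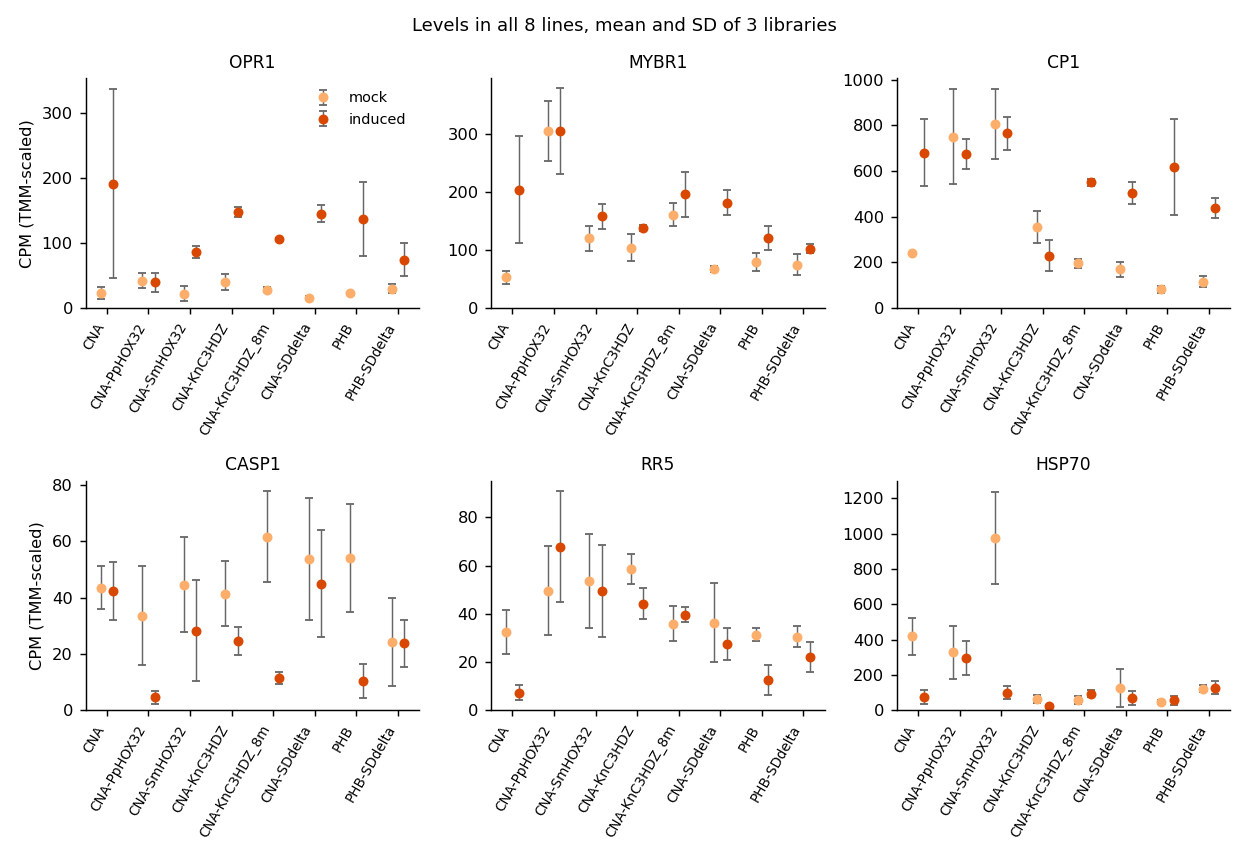
Mock and induced levels of 6 genes in all 8 lines, in CPM on axes that start at 0, as mean and SD of 3 libraries. OPR1 is higher in induced than in mock seedlings of every line except CNA-PpHOX32, MYBR1 is highest in CNA-PpHOX32 in both treatments, CASP1 is lowest in CNA-PpHOX32 induced seedlings, and RR5 is lowest in CNA induced seedlings.

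CASP1 and ESB1, both of the root endodermis, fell in CNA-PpHOX32. CASP1, whose span overlaps AT2G36090, encodes a membrane scaffold of the Casparian strip, the lignin seal around root endodermal cells. It stood at 39.3, 52.4 and 38.7 CPM in CNA mock and at 32.9, 53.3 and 40.5 CPM in CNA induced libraries. It went from 30.04, 52.8 and 18 CPM to 3.85, 7.22 and 2.71 CPM in CNA-PpHOX32, below every other library. The difference in response was -2.89 ± 0.68 (adjusted p = 0.0221; 0.0396 in the 12-library fit and 0.292 in the fit with weights per line). ESB1, a dirigent-domain protein needed to form the strip and picked out after its value was seen, went from 113, 126 and 89.4 CPM to 14.2, 27.0 and 13.7 CPM in CNA-PpHOX32 and stood at 98.5 to 183 CPM in the 6 CNA libraries. It differed by -2.80 ± 0.54 (adjusted p = 0.00276; 0.00329 in the 12-library fit and 0.0413 with weights per line) and kept its call in each of the 12 leave-one-out fits.

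Of the 13 root markers, 10 were tested. In CNA-PpHOX32, 4 fell, among them CASP1 and PER64, a peroxidase of the same strip, and none rose, whereas none passed in CNA in either direction. By comparison, 3.92% of all genes tested fell in CNA-PpHOX32, and 0.698% had a lower response. The difference passed for CASP1 alone, and the median difference over the 10 was -2.17. The summed level of the list was 131 to 177 CPM in CNA mock, 95.2 to 162 in CNA induced, 94.5 to 173 in CNA-PpHOX32 mock and 20.4 to 75.3 in CNA-PpHOX32 induced libraries. SHR and SCR, transcription factors of the endodermal lineage, did not pass (0.84 ± 0.61 and 0.59 ± 0.88). Less root tissue in a sample and less RNA per cell cannot be told apart in whole seedlings, and the part of either in these values was not tested. In the other 6 lines the CASP1 mean was lower in induced than in mock seedlings in each, with induced means of 10.5 to 45.0 CPM. The ESB1 mean was higher in induced than in mock seedlings in 1 of these 6 lines and lower in the rest. Its means there were 113 to 196 CPM in mock and 47.6 to 189.5 CPM in induced seedlings. Lower induced means of CASP1 and ESB1 were therefore found in lines other than CNA-PpHOX32, and those falls were not tested here.

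Of the 16 genes with a higher response, 7 fell in CNA and passed no test in CNA-PpHOX32, 3 rose in CNA-PpHOX32 and passed none in CNA, 1 fell in both and 5 passed neither. Of the 16, 10 had a mean of 10 or more counts in 3 of the 4 groups, and the others are not named. RR5, a type-A response regulator that is switched on by cytokinin and dampens its signalling, went from 24.97, 30.1 and 42.7 CPM to 5.56, 11.1 and 5.46 CPM in CNA. In CNA-PpHOX32 it went from 40.4, 37.5 and 70.8 CPM to 76.6, 85.0 and 41.7 CPM, and these groups overlapped. It fell by 2.19 ± 0.40 in CNA (adjusted p = 5.49e-05), and the difference in response was 2.65 ± 0.53 (adjusted p = 0.00476; 0.0745 in the fit with weights per line). RR5 kept its call in each of the 12 leave-one-out fits.

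Of the 10 type-A ARR genes, 7 were tested, 5 fell in CNA and none passed in CNA-PpHOX32. By comparison, 3.96% of all genes tested fell in CNA, and 0.0846% had a higher response. RR5 was the one called in the difference, and the list's median difference was 1.24. ARR6, whose span overlaps AT5G62910, went from 29.7, 33.1 and 40.4 CPM to 7.22, 0 and 0 CPM in CNA and from 41.8, 47.4 and 52.4 CPM to 26.1, 36.1 and 33.1 CPM in CNA-PpHOX32. Its difference of 3.05 ± 0.81 lay just past the threshold (adjusted p = 0.0504). The ARR6 difference passed in the limma voom fit with weights per line (adjusted p = 0.00996) but not in the 12-library fit (0.238). It was called in 2 of the 12 leave-one-out fits. ARR9 and ARR4 had differences of 1.24 ± 0.37 (adjusted p = 0.0955) and 1.14 ± 0.38 (adjusted p = 0.158).

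UGT78D2, which adds glucose to flavonoids, fell from 88.8, 68.4 and 90.2 CPM to 13.2, 6.71 and 22.0 CPM in CNA and was read at 131, 107 and 79.4 CPM and then at 113, 48.9 and 105 CPM in CNA-PpHOX32. Its difference was 2.28 ± 0.43 (adjusted p = 0.00158), and it kept its call in each of the 12 leave-one-out fits. It was the one of 8 tested flavonoid genes that passed. HSP70, a cytosolic chaperone gene, fell from 418, 315 and 523 CPM to 112, 78.2 and 31.5 CPM in CNA and stood at 163 to 447 CPM in the 6 CNA-PpHOX32 libraries, with a difference of 2.36 ± 0.56 (adjusted p = 0.0235). Its mock mean was 419 CPM in CNA, 328 CPM in CNA-PpHOX32 and 975 CPM in CNA-SmHOX32, and 48.04 to 125 CPM in the other 5 lines. Of 14 tested heat shock genes, 6 fell in CNA and 1 in CNA-PpHOX32, and HSP70 was the one called in the difference, at a list median of 2.64. The shares of all genes tested were 3.96% falling in CNA, 3.92% falling in CNA-PpHOX32 and 0.0846% with a higher response.

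GASA6, a gibberellin-regulated peptide gene whose span overlaps AT1G74675, fell in both lines, from 63.0, 172 and 57.2 CPM to 0.752, 2.37 and 0.210 CPM in CNA and from 34.9, 39.4 and 81.0 CPM to 14.5, 18.5 and 4.58 CPM in CNA-PpHOX32. The difference was 4.67 ± 1.04 (adjusted p = 0.0126; 0.438 in the fit with weights per line). GAMMA-TIP, a water channel of the vacuolar membrane, went from 526 ± 37.8 to 334 ± 87.5 CPM in CNA and from 483 ± 108 to 889 ± 264 CPM in CNA-PpHOX32. Its difference passed in edgeR's fit over all libraries (adjusted p = 0.0367) and in the 12-library fit (0.0402). It did not pass in the limma voom fit with weights per line (adjusted p = 0.108), and it kept its call in 3 of the 12 leave-one-out fits. The other genes in this direction with enough counts were AT1G18950, AT4G04223, AT3G49140, AT1G69570 and AT5G36230, with differences from 1.12 to 4.31. None of these 5 was called in the 12-library fit.

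Of 23 jasmonate list members, 18 were tested. In CNA, 4 rose and 1 fell, where 4.05% and 3.96% of all genes tested did. In CNA-PpHOX32, 2 fell and none rose, where 3.92% and 1.56% of all genes tested did. AOC1, an allene oxide cyclase, went from 10.5, 4.93 and 5.89 CPM to 34.4, 32.4 and 31.7 CPM in CNA and from 16.7, 12.4 and 31.4 CPM to 3.36, 4.71 and 11.9 CPM in CNA-PpHOX32, a difference of -3.80 ± 0.90 (adjusted p = 0.0235; 0.040 in the 12-library fit). AOS, the allene oxide synthase before it in the pathway, differed by -1.85 ± 0.41 (adjusted p = 0.0125; 0.155 in the 12-library fit), and its CNA-PpHOX32 mock libraries ran from 72.0 to 223 CPM. The other 16 tested members did not pass, and the list's median difference was -1.76. The share of all genes tested with a lower response was 0.698%.

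Photosynthesis transcripts fell in both lines. Of 42 photosystem and antenna genes, 37 fell in CNA and 39 in CNA-PpHOX32, against 3.96% and 3.92% of all genes tested. Their median log2 changes were -1.22 and -1.68. Their summed level went from 73394 to 87751 CPM in CNA mock libraries to 35204 to 49015 CPM after induction, and from 56553 to 101925 CPM to 25031 to 30509 CPM in CNA-PpHOX32. Among induced libraries 17 of the 42 were lower in CNA-PpHOX32 and none among mock libraries, against 1.82% and 0.677% of all genes tested. The difference in response passed for LHB1B2, a light-harvesting protein gene whose span overlaps AT2G34410. It was read at 3302, 4017 and 4185 CPM in CNA mock, 2019, 4420.4 and 3114 CPM in CNA induced, 2873, 5849 and 5348 CPM in CNA-PpHOX32 mock and 2004, 1660.3 and 1205 CPM in CNA-PpHOX32 induced libraries. Its CNA-PpHOX32 induced libraries lay below all others, the highest of them just under the lowest CNA induced library, and the difference was -1.26 ± 0.31 (adjusted p = 0.0280; 0.222 in the 12-library fit). The list's median difference was -0.53, and 39 of the 42 lay below 0. Of 19 Calvin cycle genes, 17 fell in each line, with a median difference of -0.10, and none passed the test of the difference.

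Cold and dehydration genes rose in both lines, 14 of 19 in CNA and 13 in CNA-PpHOX32, against 4.05% and 1.56% of all genes tested. Their median log2 change was 2.58 in CNA and 1.61 in CNA-PpHOX32, and 18 of the 19 differences lay below 0. CBF2 was called in the difference. LEA14 missed the threshold at -1.13 ± 0.30 (adjusted p = 0.0505), and so did LTI30 at -1.08 ± 0.30 (adjusted p = 0.0688). No member passed the test of the difference in the lists for HD-ZIPII genes (10 tested), leaf polarity (12), auxin synthesis and transport (11), Aux/IAA (20), xylem secondary wall (14), chlorophyll synthesis (13), the circadian clock (19), starch breakdown (16), salicylic acid defence (15), glucosinolates (12) and the cell cycle (18). Their median differences ran from -0.64 (salicylic acid defence) to 0.68 (cell cycle).

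**Figure D5:**
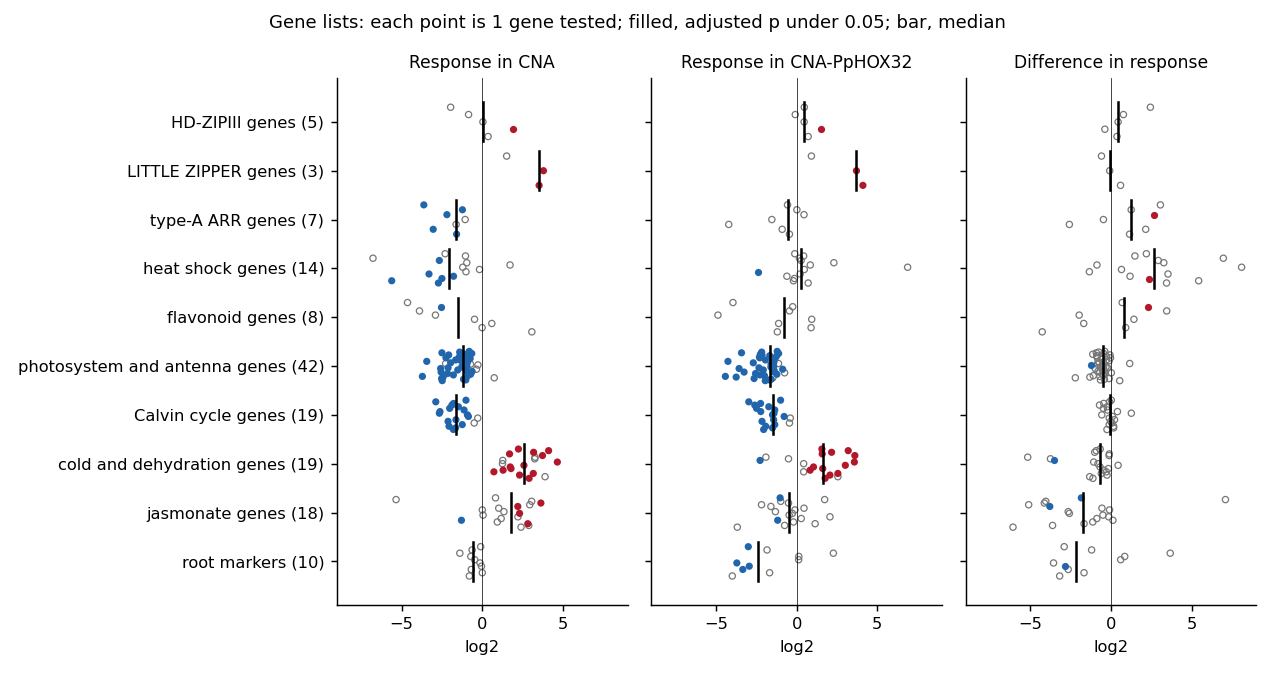
Log2 response of each tested list member in CNA (left) and in CNA-PpHOX32 (middle), and the difference in response (right); filled points passed the test, red above and blue below 0, and bars mark medians. Most photosystem and Calvin cycle genes are blue in both lines, most cold and dehydration genes are red in both, with CBF2 blue in CNA-PpHOX32, and in the right panel filled points are 1 each for type-A ARR, heat shock, flavonoid, photosystem, cold and root marker genes and 2 for jasmonate genes.

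The genes with the largest differences had few counts. AT4G36430 was read at 15.8, 19.0 and 2.94 CPM in CNA induced libraries and at 0.0611, 0 and 0.170 CPM in CNA-PpHOX32 induced ones, at least 23.1-fold lower when 3 counts per library are taken as the floor. AT4G27290 was read at 3.84, 7.54 and 16.8 CPM in CNA-PpHOX32 mock libraries and at 0.0611, 0 and 0 CPM after induction, at least 17.3-fold lower. AT3G29000 was read at 0.276, 0 and 0 CPM in CNA mock libraries and at 19.2, 7.502 and 18.7 CPM after induction, at least 38.7-fold higher, and at 1.54 to 7.999 CPM in the 6 CNA-PpHOX32 libraries. None of these 3 was called in the 12-library fit (adjusted p = 0.0553, 0.159 and 0.0534).

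CYP706A2, a cytochrome P450 gene whose 3′ end is near-identical to that of AT4G22690, so that reads may be divided between them, went from 0.461, 0.219 and 0 CPM to 27.8, 19.0 and 57.9 CPM in CNA. It was at 6.14 to 62.4 CPM in the 6 CNA-PpHOX32 libraries, a difference of -5.68 ± 1.33 (adjusted p = 0.0208; 0.0155 in the 12-library fit). UGT76B1, a glucosyltransferase acting in salicylic acid defence, went from 21.8, 4.93 and 2.66 CPM to 63.4, 43.0 and 47.4 CPM in CNA and from 20.1, 14.4 and 34.6 CPM to 8.55, 1.57 and 6.44 CPM in CNA-PpHOX32. Its difference of -4.38 ± 0.92 (adjusted p = 0.0073) was called under all 9 alternative settings and in each of the 12 leave-one-out fits. The other 6 lines had UGT76B1 means of 5.65 to 11.6 CPM in mock and 7.33 to 15.3 CPM in induced seedlings. The induced mean was 51.3 CPM in CNA, far above that range, and 5.52 CPM in CNA-PpHOX32, just below it. PIRL2, AT2G35290, AT4G07820, AT1G19960 and NANA complete the 10 largest lower responses, between -5.65 and -4.27.

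Depth differed between the libraries, from 2812517 counts (CNA induced replicate 2) to 15785135 (CNA-PpHOX32 induced replicate 1), so that 3 counts, the limit that a count of 0 allows, corresponded to 0.183 to 1.18 CPM. These limits cover counting error only. CNA induced replicate 2 and CNA-PpHOX32 mock replicate 3 lay farthest from the rest in a principal component plot, and without both, a setting chosen after seeing the data, 63 genes were called in the difference, 54 of them among the 148. The labels call the libraries biological replicates without saying whether they came from separate plates or sowings. The p-values weigh differences against the spread between libraries of a group, estimated over all 48 libraries. Whether that spread covers separate plates or sowings is not known.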

How the data were processed

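For every library the authors deposited whole-number read counts, not normalized, over 28496 gene identifiers. Per the submitters' processing notes, Trimmomatic, STAR, featureCounts and DESeq2 were used with the TAIR10 genome; versions, annotation and strand setting are not given in the sources used here, so reads of overlapping or antisense genes may have been counted together. Symbols, coordinates and promoters came from RefSeq TAIR10.1, where 28009 identifiers matched. In that annotation 33 of the 148 genes called in the difference overlap another gene, among them GSTU7, ESB1, NHL3, AT5G11090, AT4G27290, AT4G33467 and AT1G69570. The members, lists and tests were chosen with earlier results of these data known.

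Counts were scaled by TMM and fitted with edgeR 4.0.16 (quasi-likelihood, filterByExpr, 1 mean per group) in R 4.3.3 over all 48 libraries, 3 in each of 16 groups. P-values were Benjamini-Hochberg adjusted over 18909 genes within each comparison, with a threshold of 0.05. SE is the log2 value divided by the square root of its F statistic, and 95% intervals are 1.96 SE to either side. The fit was tested on simulated data with the spread of each line. There it recovered most changed genes, with the right direction for each one called, but well exceeded the nominal share of false calls. Only genes of higher level were changed, by a single large size, so recovery of weaker changes or scarcer transcripts was not measured. Alternatives used DESeq2 1.42.0, limma 3.58.1, other filters, thinning to the smallest library, GC correction over the last 500 exonic bases, a replicate block, fits without 1 library and, chosen after seeing the data, without 2.

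Genes are named as follows: the 10 largest called differences per direction with a mean of 10 or more counts in 3 of the 4 groups and no overlap of mock and induced libraries in at least 1 line, the HD-ZIPIII and LITTLE ZIPPER genes, list members called in the difference, and up to 3 examples per list. Other genes were picked after their values were seen, among them ESB1 and the genes of smallest p-value, which include MYBR1, CP1 and UCP5. Equal replicate numbers did not pair libraries (correlations of deviations from -0.0204 to 0.0393). Replicates of a group differed by 16.1 to 52.8 chi-square per degree of freedom, far from sampling noise.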

Additional observations from a re-analysis of the deposited data

Results flagged for a closer look

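Each gene below was picked out because the test of the difference between the 2 lines' responses passed, with edgeR's adjusted p given for each. Genes with a lower response in CNA-PpHOX32 came first by p-value with AT5G11090 (3.48e-05), followed at 0.000232 by AER, CCH, FMO GS-OX4, OPR1, AT1G21670, ADC2, UCP5 and AT4G33467. The adjusted p was 0.000254 for XTH24, 0.000309 for GSTU7, 0.000482 for TPX2, 0.000546 for MYBR1, 0.00122 for NHL3, 0.00155 for CP1 and GSTU19, and 0.00276 for ESB1. These 17 genes kept their calls in each of the 12 leave-one-out fits.

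Among the largest lower responses it was 0.0073 for UGT76B1 and AT4G07820, which kept their calls in each of those fits too, 0.0208 for AT3G29000 and CYP706A2, 0.0261 for AT2G35290, 0.0297 for AT4G36430, 0.0374 for AT1G19960, 0.0379 for NANA, 0.0431 for AT4G27290 and 0.0448 for PIRL2. Each of these 8 lost its call in at least 1 leave-one-out fit. Among list members it was 0.0125 for AOS, 0.0221 for CASP1, 0.0235 for AOC1, 0.0280 for LHB1B2 and 0.0328 for CBF2, and each of these also lost its call in at least 1 such fit.

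Among genes with a higher response it was 0.00158 for UGT78D2 and 0.00476 for RR5, both called in each leave-one-out fit. It was 0.0126 for GASA6, 0.0200 for AT1G18950, 0.0235 for HSP70, 0.0256 for AT4G04223, 0.0270 for AT1G69570, 0.0339 for AT5G36230, 0.0341 for AT3G49140 and 0.0367 for GAMMA-TIP, each of which lost its call in at least 1.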

How the results depend on the processing

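The count of genes called in the difference in response, 148, was 360 with DESeq2 (129 higher, 231 lower, so 35.8% higher against 10.8%), 307 with no filter on low counts, 73 with limma voom and weights per line, 65 with the 12 libraries alone, 70 with those thinned to the smallest total, and 63 without the 2 libraries that stood apart. Fewer libraries or reads entered the last 3 of these, and the cause of the other changes was not tested. Induction in CNA-PpHOX32, 1037 genes, gave 1605 with DESeq2, 517 with voom, 641 with 12 libraries and 570 thinned, and induction in CNA, 1514 genes, gave 978 thinned. The mock comparison, 333 genes, gave 575 with DESeq2, 205 with 12 libraries and 193 thinned, and the induced comparison, 491 genes, gave 899, 227 and 214, and 210 with voom. Leaving out each library in turn gave 69 to 183 calls in the difference, 664 to 1427 in CNA-PpHOX32, 1078 to 1569 in CNA, 184 to 358 among mock and 241 to 807 among induced libraries. The difference fell by over 1.5 times without CNA mock replicate 1 (93), 2 (69) or 3 (76), or CNA-PpHOX32 mock replicate 3 (82). The induced comparison moved as far without CNA-PpHOX32 induced replicate 1 (807), 2 (241) or 3 (278), induction in CNA-PpHOX32 without induced replicate 2 (688) or 3 (664), and the mock comparison without CNA mock replicate 2 (184). No named gene called in the difference changed direction under any of these settings. With the replicate number as a block, 115 genes were called in the difference (101 of them among the 148) and 1403 in CNA. The numbers did not pair the libraries, and no block could be fitted between lines, where the block lies within a line. In the 12-library fit the jasmonate list had 1 call in place of 2, and the photosystem and cold lists had none in place of 1. Depth limits the genes of lowest level, where 3 counts came to as much as 1.18 CPM.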
